A study of Mus musculus with 2 samples.

Results

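The 10 genes described here, Nr4a1, Nr4a2, Nr4a3, Egr1, Egr2, Egr3, Ier2, Ier5, Cd69 and Cd83, are early response genes that lymphocytes switch on when their antigen receptor is engaged. They were taken by gene symbol from the deposited comparison of CD80high and CD80low marginal zone B cells, and all 10 were found among 21829 gene symbols. Both populations came from the spleen of untreated, wild-type male C57BL/6 mice, and each was sequenced as 1 messenger RNA library. CD80, the costimulatory protein that divides the populations, is the only sort marker named, and neither the other gates nor the number of animals is given in the sources used here. Levels are FPKM (fragments per kilobase of transcript, normalised to sequencing depth), which correct for transcript length and so allow genes to be set side by side within a library. With 1 library per group no difference has a replicate check and no test was made, and the values compare these libraries rather than the populations.

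NR4A proteins are orphan nuclear receptors: their ligand pocket is closed, so their activity follows how much of the protein is made. EGR proteins are transcription factors with zinc fingers that bind GC-rich DNA. In B cells, calcium and ERK signals downstream of the antigen receptor induce both families within a short time, and mouse studies of B and T cells have assigned them a restraining role when costimulation is lacking. CD69 and CD83 are surface proteins that appear on lymphocytes soon after activation.

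The promoters of the NR4A genes are shown because these were the members whose levels differed together between the libraries, as given further on. Of the 10 genes, 5 had windows of 250 bases before to 50 bases after a transcription start in the set of RefSeq promoters used here (GRCm38.p6, the assembly of mm10): Nr4a1, Nr4a2, Nr4a3, Egr2 and Ier5. The set used held no such window for Egr1, Egr3, Ier2, Cd69 and Cd83, so their promoters, that of Egr1 included, could not be compared. Capitals mark TGACG on either strand (CGTCA where it lies on the other strand), the half-site of the cAMP response element (CRE) that factors of the CREB family bind. The windows are chr15:101266596-101266895 on the plus strand for Nr4a1, chr2:57123954-57124253 on the minus strand for Nr4a2 and chr4:48045055-48045354 on the plus strand for Nr4a3. The Nr4a1 window lies inside the GENCODE gene, which also has starts further upstream.
Nr4a1: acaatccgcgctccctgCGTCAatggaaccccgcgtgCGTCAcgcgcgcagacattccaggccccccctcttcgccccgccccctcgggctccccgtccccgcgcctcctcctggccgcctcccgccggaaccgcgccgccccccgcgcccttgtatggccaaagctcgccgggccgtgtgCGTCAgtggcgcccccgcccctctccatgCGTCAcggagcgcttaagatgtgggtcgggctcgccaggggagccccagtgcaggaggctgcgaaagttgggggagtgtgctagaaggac
Nr4a2: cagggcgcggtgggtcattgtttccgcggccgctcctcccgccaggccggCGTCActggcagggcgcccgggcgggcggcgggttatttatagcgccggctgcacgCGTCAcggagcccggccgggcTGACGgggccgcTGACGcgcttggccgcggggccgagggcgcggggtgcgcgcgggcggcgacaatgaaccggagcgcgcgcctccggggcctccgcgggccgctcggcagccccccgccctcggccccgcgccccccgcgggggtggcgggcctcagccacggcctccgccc
Nr4a3: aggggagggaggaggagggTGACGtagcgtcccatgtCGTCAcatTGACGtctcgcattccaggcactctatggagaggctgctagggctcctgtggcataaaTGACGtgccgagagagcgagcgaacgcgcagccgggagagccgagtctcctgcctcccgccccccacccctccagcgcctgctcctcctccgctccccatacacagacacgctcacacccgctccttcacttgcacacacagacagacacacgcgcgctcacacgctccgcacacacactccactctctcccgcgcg

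Each of the 3 NR4A windows held 4 matches to TGACG. Among all 32851 promoter windows of that length, 0.231% held 4 or more and 20.8% held at least 1. Over the 10159 windows of genes measured here (mean FPKM of 1 or more), 0.61% held 4 or more. The windows are rich in G and C, with 72.3% in Nr4a1, 81.7% in Nr4a2 and 64.7% in Nr4a3, and among windows within 5 percentage points of each, 0.441%, 0.691% and 0.596% held 4 or more. The matches lay between 40 and 233 bases before the start in Nr4a1, between 111 and 200 in Nr4a2 and between 147 and 231 in Nr4a3. The full palindrome TGACGTCA, present in 1.79% of all windows, was in none of the 3.

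**Figure D1:**
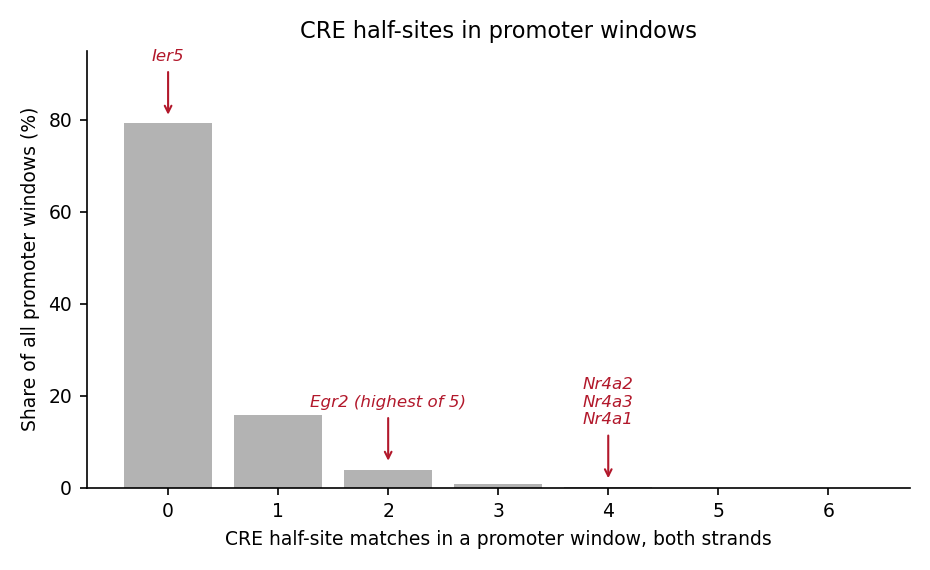
Number of CRE half-site matches (both strands) in a promoter window of 300 bases, horizontal axis, against the percent of all 32851 windows, vertical axis; arrows mark members with a window. The 3 NR4A genes stand at 4 matches, where the bar is too low to see, Egr2 at 2 in its highest windows and Ier5 at 0.

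The other motifs searched on both strands were the CArG box (bound by SRF), GCGNGGGCG (a form of the EGR site), AAAGGTCA (the site an NR4A monomer binds), the NF-kappaB site, TGANTCA (bound by AP-1) and GGAAA (the NFAT core). TGACG was singled out after this search of 8 motifs, and a match describes letters only. The 5 overlapping or neighbouring Egr2 windows differed from the NR4A ones. A CArG box, found in 1.63% of all windows, was in 4 of them, and 3 held 2 matches to TGACG. These 3 windows overlap, and their CArG box and TGACG matches are the same sites. One of these windows, chr10:67537619-67537918 on the plus strand, is shown with the CArG box in capitals, 72 bases before the start.
Egr2: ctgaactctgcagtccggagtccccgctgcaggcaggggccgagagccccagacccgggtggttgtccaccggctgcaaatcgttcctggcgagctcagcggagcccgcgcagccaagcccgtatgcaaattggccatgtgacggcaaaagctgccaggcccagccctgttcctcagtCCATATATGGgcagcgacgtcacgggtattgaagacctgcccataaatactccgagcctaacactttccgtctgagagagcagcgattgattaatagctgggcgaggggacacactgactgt
The Ier5 window had no match to any of the 8 motifs. GCGNGGGCG was found once each in the Nr4a1 and Nr4a2 windows (5.55% of all windows hold it), and an NF-kappaB site once in Nr4a1 (4.51%). GGAAA (61.3%) was found once in Nr4a2 and in every Egr2 window with a CArG box. It had 3 matches in the Egr2 window chr10:67537316-67537615 and 1 in each of the others with that box, the window shown included. AAAGGTCA (1.51% of all windows) and TGANTCA (7.81%) were in none of the members' windows.

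The files hold FPKM and no counts. The worth of 1 fragment was taken as the median of the low values of FPKM times kilobases inside a preset range of 0.03 to 0.06. It was 0.0440 in CD80high and 0.0433 in CD80low, or roughly 22700000 and 23100000 fragments. The preset range limits how far these estimates could differ between the libraries. Approximate 95% counting intervals of a fold rest on these totals and on transcript length, and cover counting error only. The summed FPKM of all genes was lower in CD80high, 551206 against 613742, so rescaling both libraries to a common total moves every log2 ratio up. It moved the median of all genes from -0.02 to 0.12. The defining B cell genes Ms4a1 (733 against 774 FPKM, CD80high first) and Cd79a (1284 against 1574) and the marginal zone gene Cr2 (807 against 837) were abundant in both. Of 7 measured marginal zone markers 6 were higher in CD80high, where 46.4% of all measured genes were, and the median ratio over the 7 was 0.31. At least 25% higher were 3 of them, against 5.66% of all measured genes. After rescaling all 7 were higher, where 73.8% of genes were.

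All 10 members passed the limit of a mean of 1 FPKM, as 9955 genes did. Ratios are log2 of CD80high over CD80low with 1 FPKM added to each, and folds are of FPKM itself. Of the 10 members, 8 were higher in CD80high by any amount, where 46.4% of the 9955 genes were, and 2 were lower, where 53.5% were. After rescaling to a common total 9 of the members were higher, where 73.8% of genes were. On the ratio scale CD80high exceeded CD80low by at least 25% for 3 members, Nr4a2, Nr4a3 and Egr1, against 5.66% of all genes. For no member did CD80low exceed CD80high by at least 25%, where it did for 7.5% of all genes, and none differed 2-fold, where 0.452% did. The median ratio was 0.12 over the members and -0.02 over all genes. In the authors' deposited table, 2 members had a p-value of at most 0.05, against 2.4% of the 10814 rows tested there, and none had a q-value of at most 0.05.

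**Figure D2:**
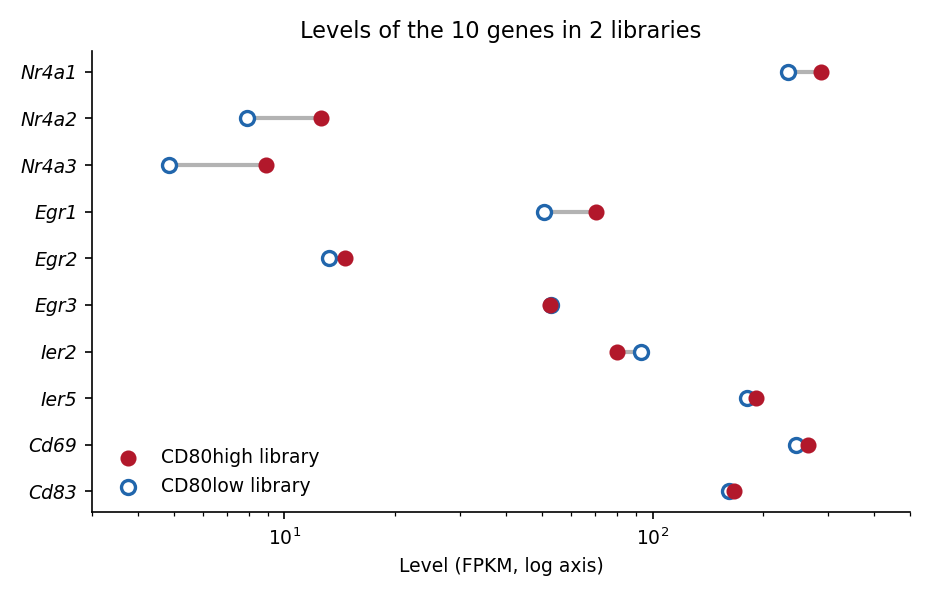
Level of each gene in the CD80high library (filled) and the CD80low library (open) in FPKM on a log axis, 1 library per group. Nr4a1, Cd69, Ier5 and Cd83 lie highest in both, while Nr4a2 and Nr4a3 lie lowest and show the widest gaps.

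Nr4a1 (Nur77), the member of its family most used as a reporter of antigen receptor signalling, stood at 287 FPKM in the CD80high library and 234 in the CD80low library. It was the highest of the 10 genes in CD80high, at rank 212 of all genes, and second to Cd69 in CD80low, at rank 275. The fold was 1.23, with a counting interval of 1.20 to 1.26. This lies just under a difference of 25%, and rescaling to a common total carries it past, to a ratio of 0.45 from 0.30. Among 193 genes within 1.5-fold of its mean level, 7 had a higher ratio. The gene is ENSMUSG00000023034 (chromosome 15, 101254269 to 101274795, plus strand, mm10).

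Nr4a2 (Nurr1), best known as a factor of dopamine neurons and also induced in activated lymphocytes, had 12.6 FPKM in the CD80high library and 7.93 in the CD80low library. It was 1.59-fold higher in CD80high, with a counting interval of 1.44 to 1.76. Over all 9955 genes 142 had a higher ratio. In the authors' deposited table it carried a p-value of 0.01225 and a q-value of 0.999. The gene is ENSMUSG00000026826 (chromosome 2, 57106830 to 57124003, minus strand).

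Nr4a3 (Nor1), the third member, showed the largest difference of the 10 genes. It had 8.91 FPKM in the CD80high library and 4.87 in the CD80low library. The fold of 1.83 had a counting interval of 1.66 to 2.03. Over all genes 88 had a higher ratio, and 19 of 1860 genes within 1.5-fold of its mean level did. In the authors' deposited table its p-value was 0.001 and its q-value 0.246. The ratio of 0.76 was 0.495 with a pseudocount of 5 FPKM. It was 0.67 after adjustment for transcript length; over all genes the median ratio was -0.13 in the shortest and 0.13 in the longest of 20 groups of genes. The gene is ENSMUSG00000028341 (chromosome 4, 48045153 to 48086447, plus strand).

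The 3 NR4A genes thus differed in the same direction and in the reverse order of their abundance. Nr4a1 made up 93.0% of the summed NR4A level in CD80high and 94.8% in CD80low. Within a library, where the scaling of the library cancels, Nr4a1 exceeded Nr4a3 32.3-fold in CD80high and 48.0-fold in CD80low, and it exceeded Nr4a2 22.8-fold and 29.5-fold. The summed level of the family was 309 FPKM against 246 FPKM, a 1.253-fold difference, most of it Nr4a1. These are bulk samples, so a larger share of cells with the transcript and more transcript per cell cannot be told apart.

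Egr1, the founding member of the EGR family, had 70.1 FPKM in the CD80high library and 50.6 in the CD80low library. The fold was 1.39, with a counting interval of 1.33 to 1.44, and 23 of 1332 genes of like level had a higher ratio. The authors' deposited table lists it with a p-value of 0.05975. Egr1 lies on chromosome 18 (34859823 to 34864984, plus strand, ENSMUSG00000038418).

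Egr2, which in T cells is tied to anergy and tolerance, had 14.6 FPKM in the CD80high library and 13.2 in the CD80low library. The fold of 1.11 had a counting interval of 0.94 to 1.31 that includes 1. That interval uses the median length of its 7 coding transcripts, 902 nucleotides; with the longest, 2965 nucleotides, it was 1.01 to 1.21. Egr3, which overlaps with Egr2 in function in mouse lymphocytes, was level, at 52.7 FPKM and 52.9 FPKM, and its ratio of -0.01 turned to 0.15 when both libraries were rescaled. Egr2 lies on chromosome 10 (67535475 to 67542188, plus strand) and Egr3 on chromosome 14 (70077203 to 70082614, plus strand).

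The EGR genes therefore changed their order between the libraries: Egr1 was 1.33 times Egr3 in CD80high and 0.955 times Egr3 in CD80low. Egr1 made up 50.9% of the summed EGR level in CD80high and 43.2% in CD80low, and Egr3 38.2% and 45.2%. The fourth gene of the family, Egr4, was not among the members and was barely listed, at 0.405 FPKM and 0.294 FPKM.

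**Figure D3:**
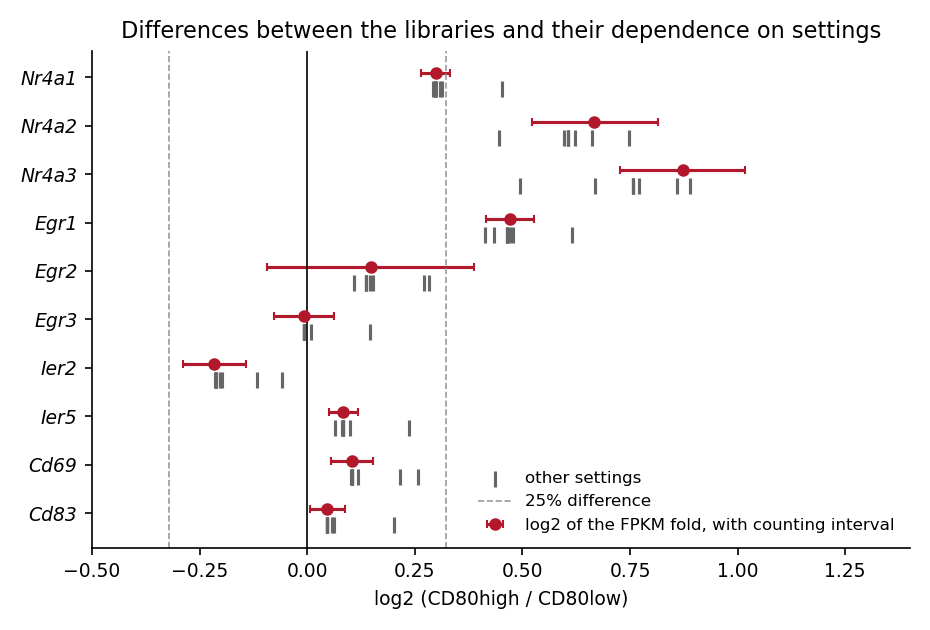
log2 of the CD80high over the CD80low FPKM value for each gene (filled points, with the approximate 95% counting interval), and the ratio under each alternative setting (ticks, on the scale with a pseudocount). Nr4a2, Nr4a3 and Egr1 stay past a 25% difference (dashed) under every setting tried, and Egr3 lies on both sides of 0.

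Ier2 and Ier5, a pair of related single-exon genes whose proteins act in the nucleus, went different ways. Ier2 had 80.0 FPKM in the CD80high library and 92.9 in the CD80low library. It was 1.16-fold lower in CD80high, with a counting interval of 1.10 to 1.22, and it was the one member beside Egr3 that was lower at all. Its ratio of -0.21 was -0.12 after adjustment for transcript length and -0.06 after rescaling. Ier5, a regulator of the heat shock factor HSF1, had 191 FPKM in the CD80high library and 181 in the other, 1.06-fold higher with an interval of 1.04 to 1.09. Ier2 is on chromosome 8 (84661331 to 84662852, minus strand) and Ier5 on chromosome 1 (155096361 to 155099636, minus strand). The other family genes were not members: Ier5l had 5.12 FPKM against 4.59 FPKM, and Ier3 was barely listed, at 0.0518 FPKM against 0.152 FPKM.

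Cd69 encodes a surface lectin that binds the sphingosine 1-phosphate receptor S1PR1 and takes it off the cell surface, which keeps lymphocytes in tissue. It had 264 FPKM in the CD80high library and 245 in the other, 1.07-fold higher with an interval of 1.04 to 1.11. S1pr1 itself had 277 FPKM and 250.1 FPKM, 1.11-fold higher. Cd83 encodes a membrane protein that opposes the ubiquitin ligase MARCH1 and so keeps MHC class II and CD86 on the surface. It was level, at 166 FPKM in the CD80high library and 161 in the other, a fold of 1.03 with an interval of 1.004 to 1.06. Cd86 had 29.4 FPKM against 22.8 FPKM, 1.29-fold higher, whereas March1 (75.2 against 84.6 FPKM) and the class II gene H2-Ab1 (2643 against 3022 FPKM) had ratios of -0.17 and -0.19, and of -0.02 and -0.04 after rescaling. Cd69 lies on chromosome 6 (129267325 to 129275436, minus strand) and Cd83 on chromosome 13 (43784775 to 43803132, plus strand). In GENCODE M21 no annotated gene overlapped any of the 10 members.

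RXR proteins pair with NR4A1 and NR4A2 on DNA: Rxrb had 52.0 FPKM against 46.8 FPKM, and Rxra was low, at 1.03 FPKM against 0.678 FPKM.

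The order of levels was much the same in both libraries. From the highest it ran Nr4a1, Cd69, Ier5, Cd83, Ier2, Egr1, Egr3, Egr2, Nr4a2 and Nr4a3 in CD80high. In CD80low Cd69 stood before Nr4a1 and Egr3 before Egr1, and all other places were equal. With 1 library per group, no neighbouring pair can be said to differ beyond the spread between animals. Nr4a1 lay 1.09-fold above Cd69 in CD80high and 1.05-fold below it in CD80low, and from the top to the bottom of the order the levels spanned 32.3-fold in CD80high and 50.4-fold in CD80low.

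**Figure D4:**
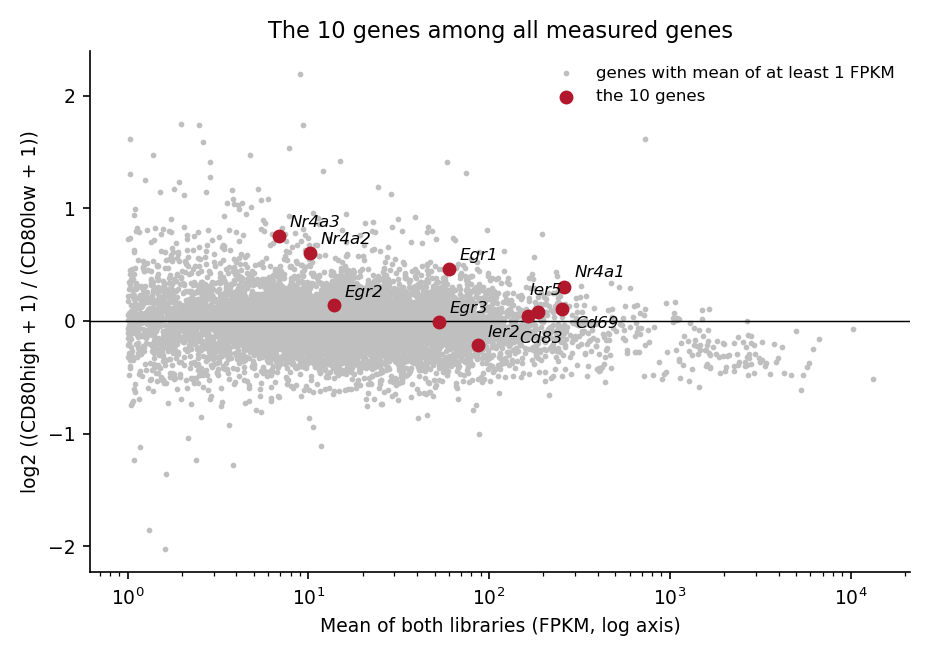
Mean level of both libraries (FPKM, log axis) against the log2 ratio with a pseudocount of 1 FPKM, for 9955 genes (grey) and the 10 members (red). Nr4a2, Nr4a3 and Egr1 lie at the upper edge of the cloud, and Egr3, Cd83 and Ier5 in its middle.

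By closeness of log2(FPKM + 1) over the 2 libraries, the genes most like Nr4a1 were Wdfy4 (290 against 233 FPKM, at a distance of 0.014), S1pr1 (0.11) and Atp2a3 (265 against 227 FPKM, 0.13). Those most like Egr1 were Nedd4 (72.3 against 52.0 FPKM, 0.059), Rnf44 (65.2 against 51.7 FPKM, 0.11) and Birc6 (64.9 against 49.4 FPKM, 0.11). A likeness over 2 libraries says only that the levels are close.

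The lists that follow are read beside all 9955 genes, of which 46.4% were higher in CD80high, 5.66% by at least 25%, and 53.5% lower, 7.5% by at least 25%, with a median ratio of -0.02. Of 33 genes that carry the B cell receptor signal to calcium, ERK and NFAT, 20 were higher in CD80high and 13 lower, 1 passed 25% in each direction, and the median ratio was 0.07. The receptor chains Cd79a and Cd79b (987 against 1183 FPKM) were lower, and the kinase gene Syk had 257 against 231 FPKM. The genes past 25%, named after their values were seen, were Nfatc1, a calcium-responsive factor that acts on early genes (123 against 95.2 FPKM, 1.29-fold higher), and Rasgrp3, an activator of Ras (51.9 against 67.5 FPKM, 1.30-fold lower). Of 15 genes for SRF, its TCF partners, CREB and MEF2 factors, 11 were higher and 4 lower, with a median of 0.16 and 1 past 25%, the TCF gene Elk4 (49.4 against 38.6 FPKM). Srf itself had 35.8 against 32.04 FPKM, Creb1 30.9 against 32.04 FPKM, and the most abundant, Mef2c and Mef2d, 113 against 124 FPKM and 84.7 against 70.1 FPKM.

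The EGR corepressors Nab1 (46.5 against 49.4 FPKM) and Nab2 (8.37 against 10.3 FPKM), the latter a known EGR target, had ratios of -0.09 and -0.27, and of 0.06 and -0.13 after rescaling. Of 19 measured corepressors and feedback inhibitors 10 were higher and 9 lower, with 5 past 25% upward and 1 downward, and the median was 0.02. On the ratio scale, at least 1.5-fold higher were Tnfaip3, the NF-kappaB inhibitor A20 (81.2 against 49.0 FPKM), and Sik1, a kinase that keeps CREB coactivators out of the nucleus (148 against 95.6 FPKM). Dusp5 was 1.55-fold higher in FPKM itself, but its ratio of 0.579 lay just under that limit. The most abundant, Zfp36 (483 against 486 FPKM) and Zfp36l1 (353 against 319 FPKM), both of which promote messenger RNA decay, were close.

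Of 8 measured AP-1 genes, the other main family of immediate early factors, 5 were higher and 3 lower, with a median of 0.09. At least 2-fold higher were 2 of them, Atf3 and Fosl2, where 0.352% of all genes were. The most abundant, Jund (713 against 812 FPKM) and Junb (633 against 677 FPKM), had ratios of -0.19 and -0.10, and of -0.03 and 0.06 after rescaling, and Fos (632 against 616 FPKM) was close. Of 31 other early activation genes 23 were higher and 8 lower, 6 past 25% upward and 1 downward, with a median of 0.11. Nfil3 was the one past 1.5-fold (7.77 against 4.49 FPKM), and the most abundant, Btg1 (553 against 545 FPKM) and Myc (323 against 281 FPKM), were closer. Batf, which like Myc has been reported in mice to be held down by NR4A proteins in B cells, had 14.2 against 15.1 FPKM. After rescaling to a common total, which left 73.8% of all genes higher in CD80high, the higher genes were 27 of 33 in the receptor signalling list, 15 of 15 for SRF, CREB and MEF2 factors, 15 of 19 corepressors and feedback inhibitors, 7 of 8 in AP-1 and 27 of 31 other early activation genes.

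**Figure D5:**
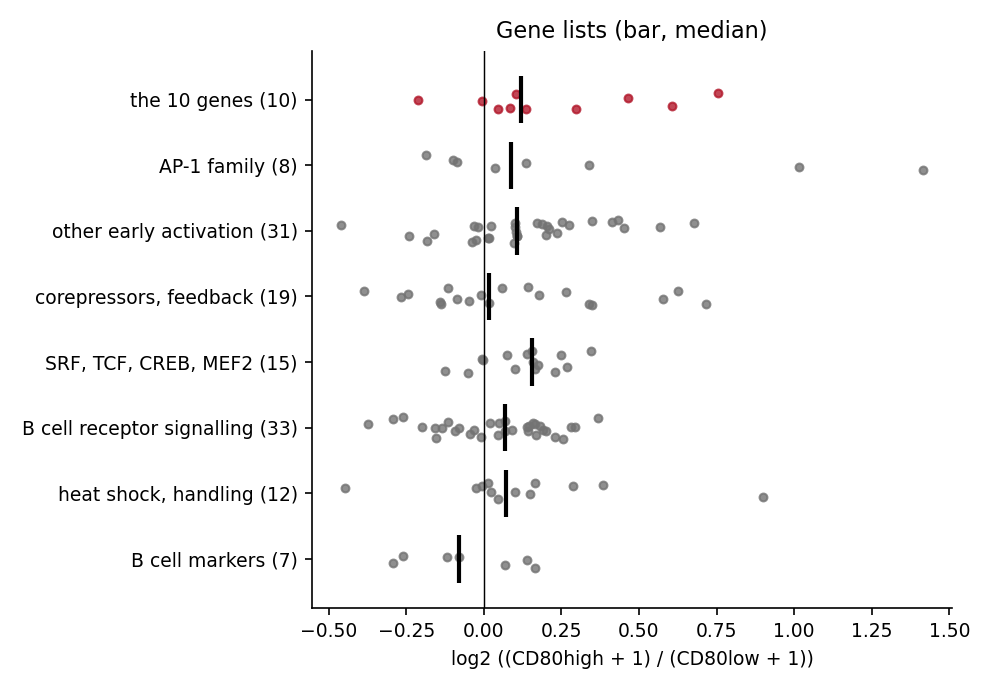
log2 ratio (pseudocount of 1 FPKM) of each measured gene in the lists named in the text, with the number of genes in parentheses and a bar at the median. The 10 genes have a median of 0.12, the AP-1 family 0.09 and the receptor signalling genes 0.07, and the points of these lists overlap.

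Beside the higher values of Nr4a2, Nr4a3 and Egr1, several other measures differed between the 2 libraries. With 1 library per group no link between these differences can be seen. Immediate early genes respond to cell handling, and of 12 heat shock and handling genes 9 had the higher value in CD80high, where 46.4% of all genes did (median ratio 0.07), and 11 after rescaling, where 73.8% did. Bag3, a cochaperone, was past 1.5-fold (7.63 against 3.63 FPKM), while Hspe1 was lower (343 against 469 FPKM) and Hsp90ab1 and Hspa8, the most abundant, were level (1128 against 1118 and 1112 against 1095 FPKM). Other leukocytes also express these genes. The marker counts that follow include genes under a mean of 1 FPKM. Without that limit 34.1% of all 21829 symbols were higher in CD80high, and 13720 were above 0 there against 13231 in CD80low. The 34.1% includes symbols at 0 in both libraries, which cannot be higher, whereas nearly all the markers were above 0 in either library. It is therefore too low a background for the marker counts, and the share among detected symbols is not given. A mean of 1 FPKM was reached by 2 of 10 T cell, 5 of 10 natural killer cell and 6 of 12 macrophage and monocyte markers. It was reached by 4 of 10 dendritic cell and 1 of 10 neutrophil markers. All 10 T cell markers were higher in CD80high, with sums of 8.80 FPKM and 1.97 FPKM, and Cd3e was at 0 in CD80low. Of 10 natural killer cell markers 9 were higher, with sums of 39.1 FPKM and 15.8 FPKM and Xcl1 at 0 in CD80low. All 12 macrophage and monocyte markers were higher, with sums of 29.1 FPKM and 14.9 FPKM and Cd14 at 0 in CD80low. Of 10 dendritic cell markers 8 were higher and 1 lower, with sums near 181 FPKM in both, mostly Ccr7 (148 against 144 FPKM) and Bst2 (27.1 against 33.5 FPKM), which B cells express too, and Xcr1 was at 0 in both. Of 10 neutrophil markers 9 were higher, with sums of 4.64 FPKM and 0.613 FPKM, and Ly6g was at 0 in both. The part of other cells and of handling in the result was not tested.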

How the data were processed

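Messenger RNA of 2 libraries was sequenced by the authors. Per the submitters' processing notes, the tools were FastQC 0.11.5, STAR 2.6, Cufflinks 2.2.1, Cuffnorm and Cuffdiff with build mm10; the sources used here give neither the strand setting nor the annotation. The deposited values are FPKM, as the Cufflinks tools give them; the column headers name the libraries and no unit. The p-value and q-value per gene are the authors', per the file headers, and come from 1 library per group. Model-based assignment of fragments to transcripts and the scaling of each library can move FPKM values.

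From the deposited FPKM, repeated symbols (24) were summed and log2((CD80high + 1)/(CD80low + 1)) was computed. The background was every gene whose mean reached 1 FPKM. No test was run. The value of 1 fragment came from single-transcript genes over 2000 nucleotides; counting intervals are exact conditional (Clopper-Pearson) and were chosen after the values were seen. Positions and lengths came from GENCODE M21 (GRCm38), promoters from RefSeq (GRCm38.p6). Members and lists were chosen with earlier results of these data known. Named were all members and, in each list other than those of cell markers, the 2 genes of highest mean. In the same lists up to 4 genes per direction past 1.5-fold on the ratio scale were named. In the cell marker lists only some such genes were named. The 3 genes nearest to Nr4a1 and to Egr1 were named too. Genes outside these rules were named for their role or after their values were seen. Ratios and calls at 2-fold were tried on simulated data. Calls at the limit of 25%, on which the differences of the members rest, were not tested in that way. Python 3.11.15, numpy 2.4.6, pandas 2.3.3 and scipy 1.17.1 were used.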

Additional observations from a re-analysis of the deposited data

How the results depend on the processing

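The alternatives were a pseudocount of 0.1 or 5 FPKM, centring on all genes, rescaling to the mean total, adjustment for transcript length in 20 bins, no filter or a filter of 5 FPKM, the second sheet and a limit of 1.5-fold. The median ratio of the 10 members, 0.12, was 0.27 after rescaling, where the median of all genes was also 0.14 higher, and 0.24 after the length adjustment. The number of members at least 25% higher in CD80high, 3, was 4 after rescaling and 2 at 1.5-fold. Of all genes 5.66% were at least 25% higher as deposited and 15.0% after rescaling, and 1.51% were at least 1.5-fold higher. No setting gave a member at least 25% higher in CD80low or 2-fold different. Rescaling changed the background more: 43.0% of all genes past 25% were higher in CD80high as deposited and 86.0% after it. Both filters and the second sheet leave a member's own ratio as it is; under the other settings 39 single ratios moved by no more than the half-width of the counting interval on that side and 11 by more. No member at least 25% different changed sign; Egr3 did so in 2 of 8 settings, centring and rescaling. The second sheet differed in 5 genes, none a member. No paired analysis was possible because there was 1 library per population. Of the list medians 64 moved by no more than the median half-width of their genes' counting intervals and 16 by more. The counting intervals leave out the spread between animals, which 1 library per group cannot show.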
